A study of Homo sapiens with 12 samples.

Results

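Collagen transcripts were followed in 2 Ewing sarcoma cell lines, TC32 and SKNMC, on arrays of 12 RNA samples. The collagen genes were taken as every probe whose gene symbol reads COL, a number, A and a number, which gave 43 genes on 73 probes out of 20045 annotated genes on 30112 probes. A gene counted as detected when a probe had a detection p-value under 0.05, set against the negative control beads, on at least 3 of the 12 arrays. By that rule 20 of the 43 collagen genes (46.5%) were detected and 23 were not, whereas 12171 of all genes (60.7%) were detected. Both lines are established cultures of Ewing sarcoma, a tumour of bone and soft tissue most often driven by the EWSR1-FLI1 fusion gene. NU7441 inhibits PRKDC, the catalytic subunit of DNA-dependent protein kinase, which acts in DNA double-strand break repair. The 4 groups, of 3 arrays each, were TC32 given 40 µM NU7441, TC32 given 0.1% DMSO vehicle, SKNMC given 40 µM NU7441 and SKNMC given 0.1% DMSO vehicle, all for 48 h. Each line stands for 1 tumour, grown in medium with serum. Whether the 3 arrays of a group came from separate cultures is not given, and p-values therefore cover the spread among these arrays, which could be technical. The titles of the vehicle samples share a mark that the NU7441 titles lack. If it stands for a different run, run and treatment cannot be told apart.

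The arrays had 17944 to 20148 probes detected and a mean intensity of 158 to 199. In SKNMC NU7441, replicates 2 and 3 correlated at 0.993 over log2 levels across detected genes, while replicate 1 correlated with them at 0.959 and 0.958. A probe for 28S ribosomal RNA read 4.33, 12.33 and 12.42 in SKNMC NU7441 replicates 1, 2 and 3 on the log2 scale, and 4.17 to 4.50 in SKNMC vehicle. It read 8.26, 9.33 and 12.69 in TC32 NU7441 and 4.86 to 5.13 in TC32 vehicle. Results that rest on SKNMC NU7441 are therefore given with and without replicates 2 and 3. In TC32 NU7441, replicates 1 and 2 correlated at 0.989, while replicate 3, with the highest 28S reading there, correlated with them at 0.966 and 0.967. For genes outside the collagens, TC32 values are not given without that array. All 10 Ewing sarcoma markers examined were detected, 9 of them on every array. Endothelial markers PECAM1, VWF and CDH5 were not detected, nor were leukocyte markers PTPRC and CD3E or epithelial markers CDH1 and KRT5. Of the same lists, the leukocyte marker CD14 was detected on 8 arrays and the epithelial marker EPCAM on 6. EPCAM was detected on no SKNMC NU7441 array and on all 3 of SKNMC vehicle, at -0.99 on the log2 scale, under the fold minimum (limma adjusted p = 0.000401). All 5 fibroblast markers examined (DCN, LUM, PDGFRB, THY1 and FAP) were detected on all 3 SKNMC vehicle arrays, although the samples are labelled only as the tumour line.

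Collagens are triple helices of 3 alpha chains, and each COL gene encodes 1 chain. Fibrillar chains build the cable-like fibres of connective tissue, network-forming chains build basement membranes, FACIT chains sit on fibre surfaces, and type VII collagen makes the anchoring fibrils that tie epithelial basement membranes to the tissue beneath. Chains are hydroxylated, glycosylated and folded in the endoplasmic reticulum before export, then trimmed and cross-linked outside the cell.

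Promoter sequences were available from RefSeq (GRCh38.p14) for 13 of the 20 detected collagen genes. Shown here are the 250 bases before the transcription start of COL7A1 and COL11A1, the genes with the widest response in SKNMC, and of COL16A1, a gene that separated the lines. The fourth sequence is the 126 bases between the starts of COL4A1 and COL4A2, which are transcribed in opposite directions. Capitals mark matches on either strand to short motifs. The GC box was searched as GGGCGG and the CCAAT box by its own letters. The TATA box was searched as TATAAA, the AP-1 site was searched as TGANTCA, and the SMAD box was searched as CAGAC. COL7A1 lies at chr3:48595330-48595579 (minus strand), COL11A1 at chr1:103108523-103108772 (minus strand), COL16A1 at chr1:31704018-31704267 (minus strand) and the COL4A1 to COL4A2 span at chr13:110307158-110307283 (plus strand).
COL7A1: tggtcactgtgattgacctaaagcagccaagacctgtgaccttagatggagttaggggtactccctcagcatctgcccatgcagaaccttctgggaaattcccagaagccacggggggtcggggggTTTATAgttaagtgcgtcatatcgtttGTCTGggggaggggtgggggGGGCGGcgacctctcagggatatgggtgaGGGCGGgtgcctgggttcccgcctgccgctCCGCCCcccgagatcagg
COL11A1: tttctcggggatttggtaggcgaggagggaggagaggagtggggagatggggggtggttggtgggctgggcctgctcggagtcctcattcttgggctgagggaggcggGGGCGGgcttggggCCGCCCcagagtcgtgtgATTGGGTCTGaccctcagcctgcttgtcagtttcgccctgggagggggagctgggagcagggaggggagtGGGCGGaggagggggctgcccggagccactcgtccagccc
COL16A1: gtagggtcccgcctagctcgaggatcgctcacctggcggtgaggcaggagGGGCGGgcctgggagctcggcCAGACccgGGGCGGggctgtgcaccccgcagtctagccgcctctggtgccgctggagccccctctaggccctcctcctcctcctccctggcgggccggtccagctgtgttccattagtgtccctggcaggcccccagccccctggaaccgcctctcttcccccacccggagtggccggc
COL4A1 to COL4A2: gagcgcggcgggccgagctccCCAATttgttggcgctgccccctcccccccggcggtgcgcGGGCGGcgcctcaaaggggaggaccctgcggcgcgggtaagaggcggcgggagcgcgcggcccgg

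The COL7A1 sequence held 3 GC boxes, 1 TATA box and 1 SMAD box. The COL11A1 sequence held 3 GC boxes, 1 CCAAT and 1 SMAD box, the last of these adjoining each other without overlap. COL16A1 had 2 GC boxes and 1 SMAD box. The shared COL4A1 and COL4A2 span had 1 CCAAT and 1 GC box in a stretch of 80.2% GC. Among 35116 promoter windows of the same reference set, 250 bases each, the GC box was present in 42.6%, CCAAT in 32%, the TATA box in 10.7%, the AP-1 site in 6.57% and the SMAD box in 38%. A match describes these letters in this window and was not tested for binding.

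Detected collagens came from most structural classes. Of 11 fibrillar genes 8 were detected: COL1A1, COL1A2, COL2A1, COL3A1, COL5A1, COL5A2, COL11A1 and COL27A1. Network-forming genes gave 3 of 9 (COL4A1, COL4A2 and COL8A2) and FACIT genes 4 of 10 (COL12A1, COL16A1, COL20A1 and COL21A1). The beaded-filament chains COL6A1 and COL6A2 were detected out of 6 genes, the transmembrane COL25A1 out of 3, the multiplexin COL18A1, whose C-terminal fragment is endostatin, out of 2, and COL7A1 was the 1 anchoring gene. Only COL3A1, COL4A1, COL5A1, COL5A2 and COL8A2 were detected on all 12 arrays. The 23 undetected genes, each seen on at most 2 arrays, were COL4A3, COL4A4, COL4A5, COL4A6, COL5A3, COL6A3, COL6A5, COL6A6, COL8A1, COL9A1, COL9A2, COL9A3, COL10A1, COL11A2, COL13A1, COL14A1, COL15A1, COL19A1, COL22A1, COL23A1, COL24A1, COL26A1 and COL28A1. They include COL6A3, the third chain of the usual type VI molecule, and all 3 chains of the cartilage collagen IX.

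In TC32, NU7441 lowered the transcripts of 2 fibrillar collagens and raised none past the threshold. A gene was called when limma's moderated test, adjusted over all 12171 genes, gave p under 0.05 and the log2 fold change was at least 1 in size. The 2 called collagens, both lower, are set against 6.47% of all genes called in this comparison, 2.56% higher and 3.91% lower. Without the fold minimum 4 collagens passed, against 25.3% of all genes. The median log2 fold change over the 20 collagens was -0.11, against 0.00 over all genes, with 14 of the 20 within 0.5 of 0.

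COL3A1, the alpha 1 chain of type III collagen, which forms fibres with type I in skin and vessel walls, changed furthest. Its normalized log2 levels were 5.88, 5.22 and 5.35 in TC32 NU7441 and 9.11, 8.73 and 8.90 in TC32 vehicle. The raw bead intensities separated the groups in the same way, at 109.9, 98.8 and 93.1 in TC32 NU7441 and 713.3, 583.8 and 670.8 in TC32 vehicle. Every treated array lay far under every vehicle array. COL3A1 fell by 3.43 ± 0.20 on the log2 scale (SE, n = 3 arrays per group), a 10.7-fold decrease, with a limma adjusted p of 7.95e-08. Without TC32 NU7441 replicate 3 the log2 fold change was -3.36.

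COL5A2, the alpha 2 chain of type V collagen, which joins type I fibres and limits their diameter, was the other called gene. Its log2 levels were 6.03, 6.32 and 5.15 in TC32 NU7441 and 6.82, 6.95 and 6.86 in TC32 vehicle. The groups did not overlap, but 1 treated array lay well under the other two. COL5A2 fell by 1.05 ± 0.25 on the log2 scale (limma adjusted p = 0.00691), and by 0.71 without TC32 NU7441 replicate 3, which ended the call. That array had the highest 28S reading of its group, and the part of this in the result was not tested.

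The partner chain COL5A1 had log2 levels of 6.78, 6.999 and 7.12 in TC32 NU7441 and 7.62, 7.69 and 7.13 in TC32 vehicle. The groups did not overlap, but the highest treated array lay just under the lowest vehicle array. Its log2 fold change of -0.52 ± 0.16 had a limma adjusted p of 0.0308 but missed the fold minimum. COL16A1, a FACIT collagen, showed -0.68 ± 0.23 on the log2 scale (limma adjusted p = 0.0408), also under the fold minimum, with overlapping groups.

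Across the 20 collagens, groups did not overlap in TC32 for 6 genes, 2 above and 4 below vehicle, where 38.2% of all genes were separated in this way. COL7A1 was 1 of the 2 above, with 4.93, 4.98 and 5.38 in TC32 NU7441 and 4.55, 4.26 and 4.30 in TC32 vehicle, a level detected on only 1 vehicle array. Its log2 fold change of 0.72 ± 0.31 did not pass (limma adjusted p = 0.103). The other gene above, COL25A1, was detected on 2 TC32 NU7441 arrays and 1 SKNMC vehicle array. COL25A1 met the detection rule only with TC32 NU7441, the group where it is high. COL11A1, a minor fibrillar chain of cartilage, had -0.63 ± 0.39 (limma adjusted p = 0.263), with an SD of 0.76 among the TC32 vehicle arrays. The basement membrane chain COL4A1 had -0.30 ± 0.14 (limma adjusted p = 0.142).

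**Figure D1:**
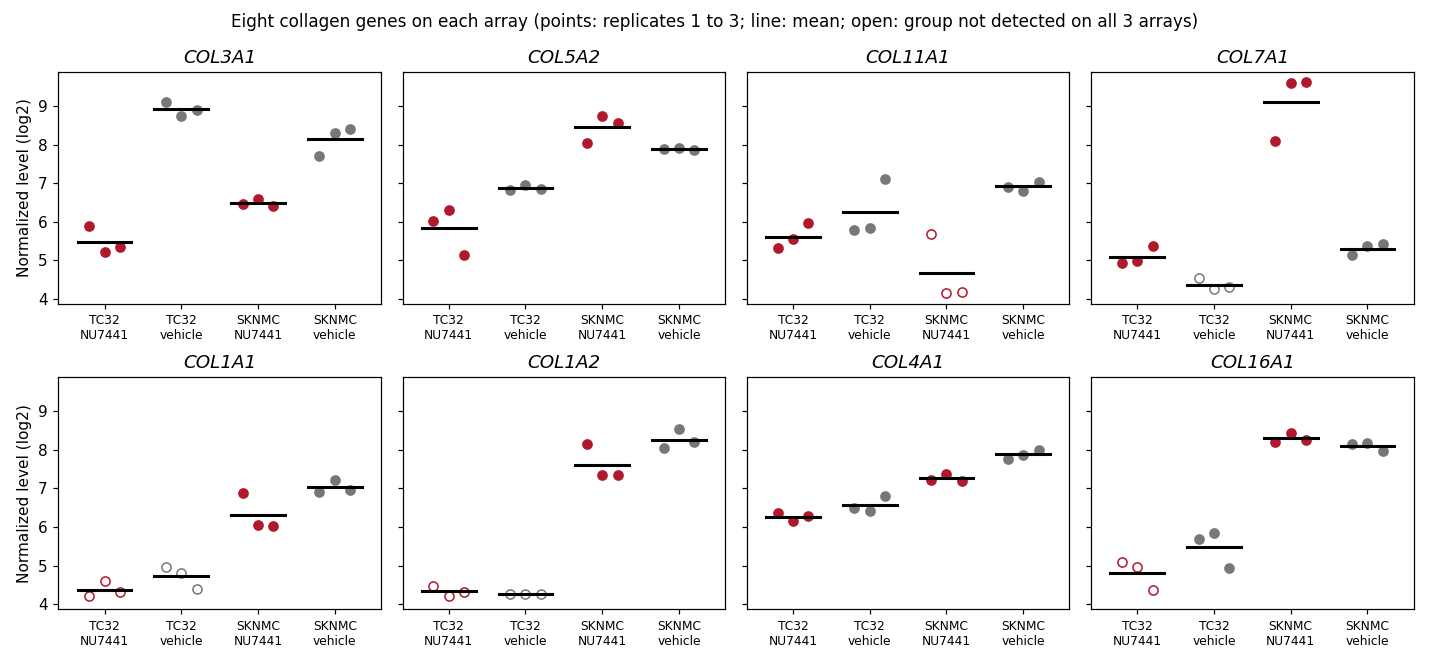
Normalized log2 level of 8 collagen genes on each of the 12 arrays, by group, with TC32 NU7441, TC32 vehicle, SKNMC NU7441 and SKNMC vehicle from left to right. Each point is 1 array, lines are group means, and open points belong to groups in which the gene was not detected on all 3 arrays; COL3A1 lies lower under NU7441 in both lines, while COL7A1 lies above vehicle by the widest margin in SKNMC.

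In SKNMC, NU7441 raised the anchoring-fibril gene COL7A1 and lowered the fibrillar genes COL11A1 and COL3A1. These 3 calls, 1 higher and 2 lower, are set against 9.08% of all genes called, 3.44% higher and 5.64% lower. With no fold minimum 7 collagens passed, against 31.9% of all genes. The median log2 fold change over the 20 collagens was 0.04, against -0.00 over all genes, and 13 of the 20 lay within 0.5 of 0. Groups did not overlap for 11 collagens, 6 above and 5 below vehicle, against 47.7% of all genes. The 5 below include COL21A1, which met the detection rule through SKNMC vehicle alone, the group where it is high.

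COL7A1 encodes the chain of type VII collagen. Its log2 levels were 8.09, 9.58 and 9.61 in SKNMC NU7441 and 5.14, 5.37 and 5.42 in SKNMC vehicle. The raw intensities were 333.8, 716.6 and 751.9 in SKNMC NU7441 and 96.5 to 107.5 in SKNMC vehicle. All 3 treated arrays lay far above vehicle, with replicate 1 lower than the other 2. COL7A1 rose by 3.79 ± 0.31 on the log2 scale, a 13.8-fold increase with a limma adjusted p of 1.90e-06. With replicate 1 as the only treated array the log2 fold change was 2.78 (limma adjusted p = 1.43e-05), and with replicates 2 and 3 alone it was 4.29 (limma adjusted p = 1.33e-10).

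COL11A1 had log2 levels of 5.67, 4.15 and 4.17 in SKNMC NU7441 and 6.90, 6.81 and 7.03 in SKNMC vehicle. This probe was detected on replicate 1 of the treated arrays only, so replicates 2 and 3 sit at background. COL11A1 fell by 2.25 ± 0.39 on the log2 scale, 4.76-fold, with a limma adjusted p of 0.000745. With replicate 1 as the only treated array the log2 fold change was -1.24 (limma adjusted p = 0.0749), which ended the call, and replicates 2 and 3 alone, being at background, gave a bound of at least 5.39-fold lower (limma adjusted p = 8.49e-06). A second, dimmer COL11A1 probe, detected on 2 of 3 treated arrays, gave -0.56 ± 0.23 (limma adjusted p = 0.0853 over probes), so the size of the decrease differed between the probes.

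COL3A1 also fell in SKNMC. Its log2 levels were 6.47, 6.60 and 6.40 in SKNMC NU7441 and 7.72, 8.30 and 8.41 in SKNMC vehicle, and the raw intensities were 152.1, 146.6 and 137.8 in SKNMC NU7441 and 290.4, 378.4 and 429.6 in SKNMC vehicle. The treated arrays lay close together and under every vehicle array. The decrease was 3.14-fold, with a log2 fold change of -1.65 ± 0.20 (limma adjusted p = 6.45e-05). It was -1.67 with replicate 1 as the only treated array (limma adjusted p = 0.00442) and -1.64 with replicates 2 and 3 alone (limma adjusted p = 5.35e-05).

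**Figure D2:**
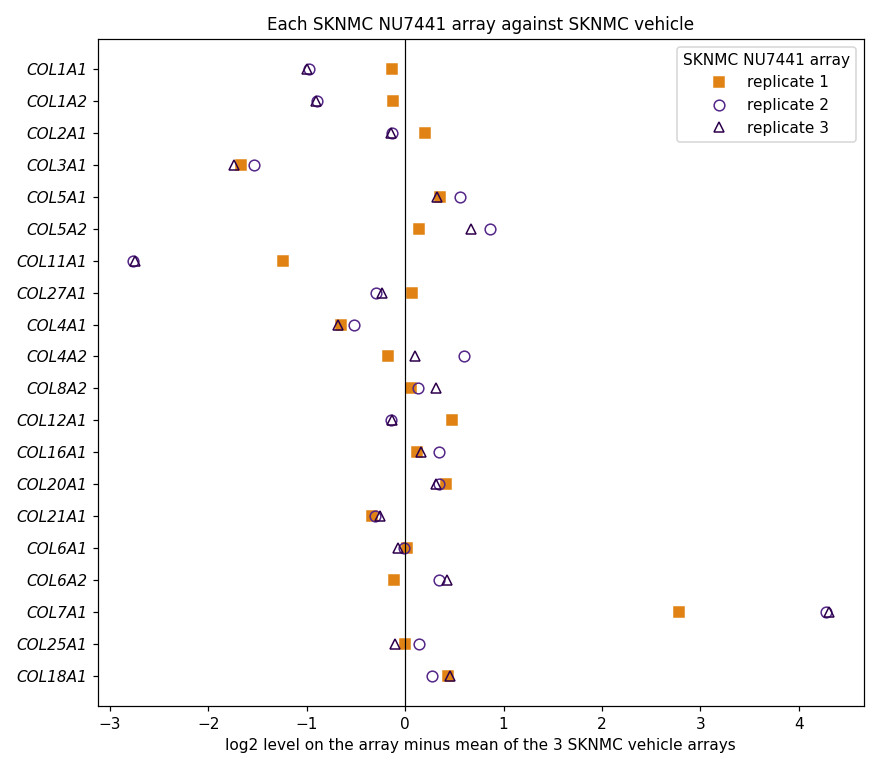
Log2 level on each SKNMC NU7441 array minus the mean of the 3 SKNMC vehicle arrays, for the collagen genes, with 1 symbol per treated replicate. COL3A1 is placed alike by all 3 arrays, whereas COL7A1, COL11A1, COL1A1 and COL1A2 lie nearer to 0 on replicate 1 than on replicates 2 and 3.

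Chains of the main fibrillar and basement membrane collagens passed the p threshold in SKNMC but not the fold minimum. COL1A1, the alpha 1 chain of type I collagen, had 6.89, 6.05 and 6.03 in SKNMC NU7441 and 6.91, 7.21 and 6.97 in SKNMC vehicle. COL1A2, the alpha 2 chain of the same molecule, had 8.14, 7.36 and 7.35 in SKNMC NU7441 and 8.04, 8.53 and 8.21 in SKNMC vehicle. In both genes replicate 1 lay near vehicle and replicates 2 and 3 lay lower.

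The log2 fold changes were -0.71 ± 0.22 for COL1A1 (limma adjusted p = 0.0259) and -0.64 ± 0.20 for COL1A2 (limma adjusted p = 0.0230). With replicate 1 as the only treated array they were -0.14 and -0.12 (limma adjusted p = 0.784 and 0.779), so the type I result rests on replicates 2 and 3. A second COL1A2 probe gave -0.40 (limma adjusted p = 0.200 over probes). COL4A1 showed -0.62 ± 0.14 (limma adjusted p = 0.00424) and had 7.23, 7.36 and 7.20 in SKNMC NU7441 and 7.76, 7.88 and 8.005 in SKNMC vehicle, with no overlap. COL4A1 was alike on all treated arrays, at -0.65 with replicate 1 alone and -0.60 with replicates 2 and 3 alone (limma adjusted p = 0.0581 and 0.00664). COL18A1 showed 0.38 ± 0.14 (limma adjusted p = 0.0474), with 5.61, 5.44 and 5.63 in SKNMC NU7441 and 5.30, 5.15 and 5.08 in SKNMC vehicle. COL18A1 passed neither with replicate 1 alone (0.43, limma adjusted p = 0.204) nor with replicates 2 and 3 alone (0.36, limma adjusted p = 0.0762).

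The type V chains had positive log2 fold changes in SKNMC that did not pass: 0.56 ± 0.25 for COL5A2 (limma adjusted p = 0.100) and 0.41 ± 0.16 for COL5A1 (limma adjusted p = 0.0693). COL5A2 had 8.03, 8.75 and 8.56 in SKNMC NU7441 and 7.87, 7.92 and 7.87 in SKNMC vehicle. COL5A1 had 8.68, 8.89 and 8.65 in SKNMC NU7441 and 8.26, 8.31 and 8.43 in SKNMC vehicle. For both chains the treated arrays lay above the vehicle arrays. COL5A2 had 0.14 with replicate 1 alone and 0.76 with replicates 2 and 3 alone (limma adjusted p = 0.842 and 0.0214), and COL5A1 had 0.35 and 0.44 (limma adjusted p = 0.395 and 0.0656).

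Among the genes near background, COL20A1 was detected on all 3 SKNMC NU7441 arrays (4.72, 4.65 and 4.62) and on none of SKNMC vehicle, at 0.36 on the log2 scale (limma adjusted p = 0.0817). COL21A1 met the detection rule through SKNMC vehicle alone, with all 3 arrays there. It was detected on none of SKNMC NU7441, at -0.30 (limma adjusted p = 0.0567). Such levels lie next to the lowest detected signal, which was 4.41 to 4.50 across the arrays. The remaining genes COL2A1, COL6A1, COL6A2, COL8A2, COL12A1, COL25A1 and COL27A1 passed in neither line. COL8A2, detected on all 12 arrays, had log2 fold changes of 0.28 in TC32 and 0.17 in SKNMC. COL27A1, detected on 5 arrays, had 0.03 in TC32 and -0.16 in SKNMC. COL2A1, COL12A1 and COL25A1 were each detected on 3 arrays. They had -0.12, -0.05 and 0.20 in TC32, and -0.03, 0.06 and 0.01 in SKNMC.

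Fibroblast markers were also lower on the SKNMC NU7441 arrays. Their summed normalized intensity was 87.3 to 112 in SKNMC NU7441 and 364 to 399 in SKNMC vehicle, and 3 of the 5 fell past the threshold (log2 fold changes of -2.17 for LUM, -1.69 for DCN and -1.55 for PDGFRB). With replicate 1 as the only treated array these were -2.42, -1.93 and -1.25, all called. In TC32 the sum was 49.8 to 82.1 under NU7441 and 95.8 to 125 under vehicle. There 1 of 5 fell past the threshold (PDGFRB, at -1.33), against 3.91% of all genes called lower. DCN, LUM and FAP were detected on no TC32 array by the probes used. Of the Ewing sarcoma markers, 3 of 10 were called lower in each line and 0 higher. Over all genes 3.91% were called lower in TC32 and 5.64% in SKNMC. The markers called in SKNMC were LIPI (-1.70), PRKCB (-1.17) and STEAP1 (-1.05). With replicate 1 as the only treated array they were at -1.05, -0.58 and -0.67, so PRKCB and STEAP1 were under the fold minimum. LIPI was detected on 1 of 3 SKNMC NU7441 arrays, so background limits the size of its fall there. The markers called in TC32 were PRKCB (-1.19), PPP1R1A (-1.14) and LIPI (-1.02). Fewer cells of a type and less RNA per cell cannot be told apart in these samples. The part of the markers and of the 28S signal in the collagen values was not tested.

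**Figure D3:**
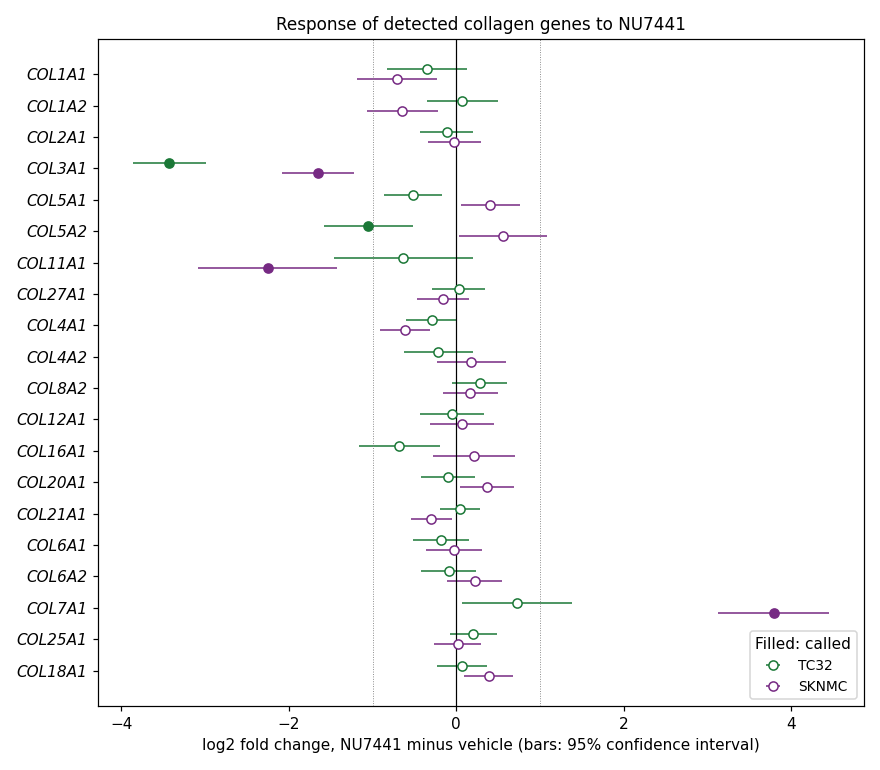
Log2 fold change of NU7441 against vehicle for the 20 detected collagen genes in TC32 and in SKNMC, with 95% confidence intervals from the model and dotted lines at the fold minimum. Filled points were called; COL3A1 is called in both lines, COL5A2 in TC32, and COL7A1 and COL11A1 in SKNMC.

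The response differed between the lines for 3 collagens, COL7A1, COL3A1 and COL5A2, each lower in TC32 relative to SKNMC. The test was the interaction, the TC32 log2 fold change minus that of SKNMC. In it 1.85% of all genes were called, 1.32% higher and 0.526% lower. With no fold minimum COL5A1 joined them, making 4 collagens against 2.56% of all genes. The median over the 20 collagens was -0.14, against -0.00 over all genes.

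COL7A1 differed most, with a log2 fold change of 0.72 in TC32 and 3.79 in SKNMC, a difference of -3.06 ± 0.43 (limma adjusted p = 0.00240). In TC32 vehicle COL7A1 lay near background, detected on 1 of 3 arrays. The TC32 rise may therefore be understated and the size of the difference overstated. The difference was -2.06 with replicate 1 as the only SKNMC NU7441 array and -3.57 with replicates 2 and 3 alone, and it was called both ways. COL3A1 fell further in TC32, with -3.43 in TC32 and -1.65 in SKNMC, a difference of -1.78 ± 0.29 (limma adjusted p = 0.00540). With replicate 1 alone it was -1.76 (limma adjusted p = 0.0423). Vehicle levels of COL3A1 also differed, with 8.91 ± 0.19 in TC32 and 8.14 ± 0.37 in SKNMC (SD, n = 3 arrays each), while under NU7441 TC32 averaged 5.49 ± 0.35 and SKNMC 6.49 ± 0.10.

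Both type V chains had negative log2 fold changes in TC32 and positive ones in SKNMC. The difference was -1.61 ± 0.35 for COL5A2 (limma adjusted p = 0.0294) and -0.92 ± 0.23 for COL5A1 (limma adjusted p = 0.0483), the second under the fold minimum. With replicate 1 as the only SKNMC NU7441 array these became -1.19 (limma adjusted p = 0.239) and -0.87 (limma adjusted p = 0.232). Leaving out 1 array at a time ended the COL5A2 call for 7 of the 12 arrays, with values between -1.85 and -1.26 and limma adjusted p up to 0.0862. For COL5A1 the adjusted p was over 0.05 without any 1 of 9 of the 12 arrays (up to 0.133).

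COL11A1 fell in SKNMC, whereas TC32 gave -0.63, and the difference of 1.62 ± 0.55 did not pass (limma adjusted p = 0.134). It was 0.61 with replicate 1 alone. With replicates 2 and 3 alone, where the SKNMC reading is background, it was 2.12 (limma adjusted p = 0.00375), so the call turned on which arrays were used. The second COL11A1 probe gave a difference of 0.19 (limma adjusted p = 0.834 over probes), from -0.37 in TC32 and -0.56 in SKNMC. For COL1A2 the difference was 0.71 ± 0.28 (limma adjusted p = 0.199), from a probe detected on no TC32 array, and the second probe gave 0.21. With replicates 2 and 3 alone the brighter probe gave 0.97 (limma adjusted p = 0.00716).

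Collagen genes that are neighbours among protein-coding genes are given side by side. COL3A1 and COL5A2 are neighbours on chromosome 2, and their log2 fold changes were -3.43 and -1.05 in TC32, both called, and -1.65 and 0.56 in SKNMC. COL4A1 and COL4A2 share the chromosome 13 promoter span shown above, and their log2 fold changes were -0.30 and -0.21 in TC32 and -0.62 and 0.18 in SKNMC. COL4A2 had 4.75, 5.52 and 5.02 in SKNMC NU7441 and 4.84, 5.11 and 4.81 in SKNMC vehicle, with overlap and a limma adjusted p of 0.527. In TC32 COL4A2 was detected on no NU7441 array and 1 vehicle array. The type VI pair COL6A1 and COL6A2, on chromosome 21, had -0.18 and -0.09 in TC32 and -0.02 and 0.22 in SKNMC. The difference between the fold changes of neighbouring genes was not tested.

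Under vehicle, TC32 carried lower levels than SKNMC of type I collagen and of several other collagens. The comparison asks how the untreated lines differ, and 5 collagens were called, all lower in TC32, against 4.26% of all genes (1.37% higher and 2.88% lower in TC32). With no fold minimum 9 collagens passed, against 14.5% of all genes. Groups did not overlap for 10, 1 above and 9 below, against 41% of all genes. Both counts include COL21A1, which met the detection rule through SKNMC vehicle alone, the group where it is high. The median log2 difference over the 20 collagens was -0.36, against -0.01 over all genes, and 16 of 20 were negative.

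The brighter COL1A2 probe was detected on none of the TC32 vehicle arrays, which read 4.26, 4.26 and 4.28, while SKNMC vehicle read 8.04, 8.53 and 8.21. For this probe the TC32 reading is background, and it was at least 13.9-fold lower in TC32 (limma adjusted p = 5.03e-09). The second COL1A2 probe was detected on 2 of 3 TC32 vehicle arrays and read 4.88, 4.46 and 4.46 in TC32 vehicle and 7.47, 7.72 and 7.72 in SKNMC vehicle. Its log2 difference was -3.04 ± 0.22 (limma adjusted p = 3.23e-07 over probes), so the probes gave the same direction and different sizes. COL1A1 had 4.97, 4.81 and 4.41 in TC32 vehicle, detected on 2 of 3 arrays, and 6.91, 7.21 and 6.97 in SKNMC vehicle. The log2 difference for COL1A1 was -2.30 ± 0.22, or 4.93-fold (limma adjusted p = 5.73e-06). Both chains of type I collagen, the main collagen of bone and skin, were thus lower in TC32.

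COL16A1 had 5.69, 5.85 and 4.93 in TC32 vehicle and 8.14, 8.16 and 7.97 in SKNMC vehicle, a log2 difference of -2.60 ± 0.23 (limma adjusted p = 2.00e-06). COL4A1 had 6.49, 6.41 and 6.81 in TC32 vehicle and 7.76, 7.88 and 8.005 in SKNMC vehicle, a log2 difference of -1.31 ± 0.14 (limma adjusted p = 1.44e-05). Neither gene overlapped between the lines. COL5A2 stood at -1.01 ± 0.25 (limma adjusted p = 0.0126), right at the fold minimum, and lost its call without TC32 vehicle replicate 1 (-0.98, limma adjusted p = 0.0523) or without SKNMC vehicle replicate 2 (-0.995, just under the fold minimum). It also fell short of the fold minimum without normalization between arrays (-0.90) and with median scaling (-0.92).

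Below the fold minimum, COL18A1 at -0.86, COL5A1 at -0.85 and COL21A1 at -0.35 passed the p threshold on the lower side (limma adjusted p = 0.000671, 0.00249 and 0.0496). COL21A1 was detected on SKNMC vehicle arrays alone, so its pass cannot be read apart from the detection rule. COL3A1 passed on the higher side, at 0.77 (limma adjusted p = 0.0194). COL7A1 had -0.94 ± 0.31 (limma adjusted p = 0.0569). Fibroblast markers DCN and LUM, at background in TC32 vehicle on the probes used, were at least 7.31-fold and 4.74-fold lower there, and their part in the collagen difference was not tested. LUM met the detection rule only with SKNMC vehicle, the group where it is high.

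**Figure D4:**
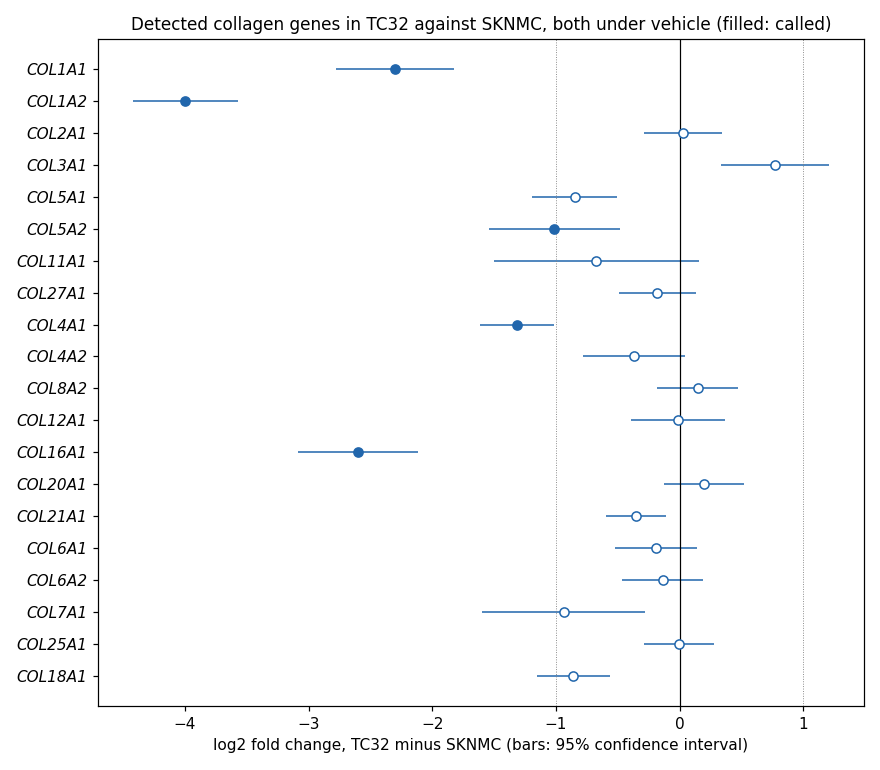
Log2 difference between TC32 and SKNMC under vehicle for the 20 detected collagen genes, TC32 minus SKNMC, with 95% confidence intervals from the model. Filled points were called; COL1A2, COL16A1, COL1A1, COL4A1 and COL5A2 are called lower in TC32, and the COL1A2 probe plotted is at background in TC32.

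The genes that modify, fold, export, trim, cross-link, degrade and bind collagen were examined as 7 lists, with 50 of 80 genes detected. In TC32, 0 were called higher and 3 lower. In SKNMC, 2 were called higher and 8 lower. The lists were chosen with earlier results of these data known, and their counts are read against the shares of all genes called that are given above.

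Enzymes that modify the chains gave 2 of 13 lower in TC32 and 3 of 13 lower in SKNMC, with 0 higher in either. PLOD3, a lysyl hydroxylase that also glycosylates hydroxylysine, fell in both lines, by 1.13 ± 0.22 in TC32 and by 1.53 ± 0.22 in SKNMC on the log2 scale (limma adjusted p = 0.00216 and 0.000216). P4HA2, a prolyl 4-hydroxylase subunit, had log2 fold changes of -1.96 ± 0.48 in TC32 and -1.77 ± 0.48 in SKNMC, both called (limma adjusted p = 0.00882 and 0.0125). P4HA2 was detected on 1 of 3 SKNMC NU7441 arrays, so background limits the size of its fall there. P3H4, a partner of lysyl hydroxylation complexes, fell by 1.07 in SKNMC (limma adjusted p = 0.0289). With replicate 1 as the only SKNMC NU7441 array PLOD3 stayed called at -1.14, whereas P4HA2 at -1.499 and P3H4 at -0.88 did not (limma adjusted p = 0.213 and 0.309). PLOD1, another lysyl hydroxylase, differed between the lines by 1.16 (limma adjusted p = 0.0313), with 0.52 in TC32 and -0.64 in SKNMC. That difference was 0.79 with replicate 1 alone (limma adjusted p = 0.243).

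Of 11 folding and export genes, 0 were called in TC32, and 1 rose and 1 fell in SKNMC. SERPINH1, the collagen chaperone HSP47, fell by 1.02 ± 0.21 in SKNMC (limma adjusted p = 0.00227) and had -0.66 with replicate 1 alone (limma adjusted p = 0.151). FKBP14, a prolyl isomerase of the endoplasmic reticulum, rose by 1.17 ± 0.25 in SKNMC (limma adjusted p = 0.00272) and by 1.35 with replicate 1 alone. The 3 propeptide-processing genes gave 0 calls in response to NU7441 in either line. LOX, which starts the cross-linking of collagen and elastin, was the 1 of 3 cross-linking genes that fell in SKNMC, by 1.03 ± 0.15 (limma adjusted p = 0.000188), and replicate 1 alone gave -0.92, under the fold minimum.

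Of 6 degradation and uptake genes, 0 were called in TC32, and the metalloproteinase inhibitor TIMP1 fell by 1.81 ± 0.20 in SKNMC (limma adjusted p = 3.07e-05), against 1.23 with replicate 1 alone. CTSK, a collagen-degrading cathepsin, differed between the lines by 1.40 ± 0.23 (limma adjusted p = 0.00629), with 0.86 in TC32 and -0.54 in SKNMC, and by 1.10 with replicate 1 alone (limma adjusted p = 0.0860). The collagen receptor kinase DDR2 was the 1 of 7 receptors called in TC32, where it fell by 2.20 ± 0.26 (limma adjusted p = 5.65e-05). DDR2 also fell in SKNMC, by 1.17 ± 0.26 (limma adjusted p = 0.00409), and by 1.47 with replicate 1 alone. Its relative DDR1 rose by 1.09 ± 0.18 in SKNMC (limma adjusted p = 0.000488), with 0.93 and no call for replicate 1 alone. Of the 7 basement membrane genes detected outside the collagens (6 laminin chains and agrin), LAMA5 fell by 1.497 ± 0.24 in SKNMC (limma adjusted p = 0.000435), by 1.24 with replicate 1 alone, and 0 were called in TC32.

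Under vehicle, 1 gene of the 7 lists was higher in TC32 and 4 were lower. PLOD2, the lysyl hydroxylase of the chain ends that sets the type of cross-link, was lowest relative to SKNMC, at -3.49 ± 0.19 on the log2 scale (limma adjusted p = 1.36e-08). LOX at -1.68, CTSK at -1.56 and the prolyl 3-hydroxylase P3H2 at -1.44 were also lower in TC32. In TC32 vehicle LOX was detected on 1 of 3 arrays and P3H2 on 2 of 3, so background limits the size of these 2 differences. PCOLCE2, an enhancer of propeptide cleavage, was higher in TC32, by 1.33 on the log2 scale.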

How the data were processed

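Per the labels, total RNA from 12 samples was labelled with biotin and hybridised to Illumina BeadChips. Per the file headers, the deposited table gives a non-normalized bead intensity and a detection p-value for each of 47319 probes per array. Another deposited table has log2 values that the submitters had already processed. Per the submitters' processing notes, the tools were GenomeStudio, lumi and R 3.0.2, with no roles given. That processed table was used only as an alternative, for the response within each line and for the difference of the responses.

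The intensities were normalized with neqc of limma 3.58.1 in R 4.3.3 (normexp background from the detection p-values, offset 16, quantile normalization, log2). Quantile normalization would hide a shift of most transcripts in 1 direction. Probes detected on at least 3 arrays were kept (21753), and the brightest detected probe of each gene by mean level was used, which gave 12171 genes. Of all probes 8 had several symbols and 17199 had none. A further 3 probes with near-matching symbols were left out of the collagens. Symbols were updated by Entrez number for 30073 probes.

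A single limma model held a mean for each of the 4 groups, with 4 contrasts and Benjamini-Hochberg adjustment over all genes, two-sided. Each gene has 1 spread for all groups, so p-values can understate the spread in SKNMC NU7441. In settings that leave 1 array in a group, that array is assumed to vary like the others. A probe detected on no array of a group gives only a bound there, which holds for that probe, against the higher of its own signal and the lowest detected signal on each array. On simulated data with known changes in the TC32 comparison (12171 genes), 96 of 100 genes changed by 1.5 on the log2 scale and 99 of 100 changed by 3 were recovered. The simulation drew independent noise with 1 SD per gene, so it lacked the differences between whole arrays described above. Recovery in the real comparison can be lower. The number of arrays limits the precision. Alternatives covered normalization, detection filter, probe choice, replicate block, fold minimum and omitted arrays. Members and lists were chosen with earlier results of these data known; every detected member is described, those called with a value on every array, and list genes are named where called. Coordinates are 1-based and come from the RefSeq promoter table.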

Additional observations from a re-analysis of the deposited data

Results flagged for a closer look

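4 collagens were marked because the test of the difference between the lines' responses to NU7441 passed at an adjusted p under 0.05 in limma. The differences, TC32 minus SKNMC on the log2 scale, were -3.06 ± 0.43 for COL7A1 (adjusted p = 0.00240), -1.78 ± 0.29 for COL3A1 (adjusted p = 0.00540), -1.61 ± 0.35 for COL5A2 (adjusted p = 0.0294) and -0.92 ± 0.23 for COL5A1 (adjusted p = 0.0483). COL3A1 fell in both lines, COL7A1 rose past the threshold in SKNMC alone, and the type V chains had opposite signs. COL7A1 lay near background in TC32 vehicle, detected on 1 of 3 arrays, so the size of its difference may be overstated. The COL7A1 and COL3A1 differences also passed with replicate 1 as the only SKNMC NU7441 array, and those of COL5A2 and COL5A1 did not.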

How the results depend on the processing

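No collagen value that was called changed sign under any alternative. In TC32 1 collagen was called from the submitters' processed values, in place of 2. With no fold minimum the counts were 4 in TC32, 7 in SKNMC, 4 for the difference and 9 for the lines under vehicle, in place of 2, 3, 3 and 5. Leaving out 1 array at a time gave 1 to 2 in TC32, 3 to 3 in SKNMC, 2 to 6 for the difference and 4 to 5 for the lines, the 6 arising without TC32 vehicle replicate 3. At a detection p under 0.01 14 collagens were detected. Without normalization between arrays the median of all genes moved to -0.25 in TC32, -0.10 in SKNMC, -0.19 for the difference and 0.07 for the lines, and calls over all genes were 108 higher and 1300 lower in TC32, in place of 312 and 476, and 77 higher and 240 lower for the difference, in place of 161 and 64. They were 260 and 888 in SKNMC, in place of 419 and 686, and 263 and 337 for the lines, in place of 167 and 351. The submitters' processed values gave 93 higher and 158 lower over all genes in TC32, 132 and 216 in SKNMC, and 45 and 13 for the difference. Replicate numbers did not pair the arrays (correlations of deviations -0.0618 to 0.0622 in TC32 and 0.00406 to 0.0383 in SKNMC), and the model with the replicate block called 2, 3, 3 and 5 collagens, while the adjusted p of the COL5A1 difference was 0.0690 with it and 0.0590 with no detection filter. Of the values of single collagens, 16 lost and 19 gained a call over all alternatives and 1641 kept their side of the threshold. Signal over background limits the genes near the lowest detected level.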
